A study of Rattus norvegicus with 16 samples.

Results

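Messenger RNA of 9 genes of the CC chemokine system was examined in rat dorsal root ganglia (DRG) after nerve injury. The genes were the ligands Ccl2, Ccl3, Ccl4, Ccl5, Ccl6, Ccl7 and Ccl21 and the receptors Ccr1 and Ccr2, and every probe set (Affy_ID) whose single gene symbol was one of these names was taken. The rule gave 9 Affy_IDs, 1 for each gene, of the 31042 that were tested. Values are log2 GC-RMA values, in which a difference of 1 is a doubling of the signal.

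CC chemokines are small secreted proteins named for a pair of adjacent cysteines near their amino end. They bind receptors coupled to G proteins on white blood cells, and a cell moves towards the higher concentration. In injured nerve and ganglion, Ccl2 acting on Ccr2 is known for drawing in monocytes, the blood cells that become macrophages, and sensory neurons are known to make Ccl2 themselves after axotomy. Most ligands bind several receptors, and most receptors several ligands.

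L4/L5 DRG of Sprague-Dawley rats were collected 7 days after surgery. In spared nerve injury (SNI) the common peroneal and tibial branches of the sciatic nerve were cut and tied and the sural branch was spared, and a tracer was placed in the cut nerve, while in sham surgery the nerve was only exposed. Adult SNI (the injured side), adult contralateral (the other side of the SNI rats) and adult sham had 3 arrays each, from males of 2 months. Young SNI and young contralateral had 2 arrays each and young sham 3, from pups operated at 10 days and collected at 17 days of age, whose sex is not given in the sources used here. Each array held RNA pooled from 3 adult rats (6 DRG) or 4 pups (8 DRG), so the spread is that between pools, and each difference was tested with limma over all 31042 Affy_IDs.

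The whole ganglion was taken, and sensory neuron markers were strong (the mean of 13 genes was 12.42 to 12.84 in all arrays but young SNI replicate 2, which had 11.44). Young SNI replicate 2 stood apart, with a mean of 9.77 for 10 genes of central nervous tissue against 3.13 to 3.60 in the other arrays. The young arrays also went against their labels in genes that mark injured sensory neurons. Atf3, a transcription factor switched on by axotomy, had values of 11.60 to 11.81 in adult SNI arrays, of 5.70 to 6.77 in adult contralateral arrays and of 5.91 to 7.27 in adult sham arrays. In the young arrays Atf3 had 7.77 and 10.17 in SNI, 9.06 and 4.87 in contralateral, and 9.49, 11.00 and 7.75 in sham. The mean of 14 injured neuron markers was 8.07 and 10.00 in young SNI, 8.80 and 6.39 in young contralateral, and 9.28, 10.32 and 7.95 in young sham. The young groups are therefore named here by their labels only, and results that rest on them are also given without single arrays.

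**Figure D1:**
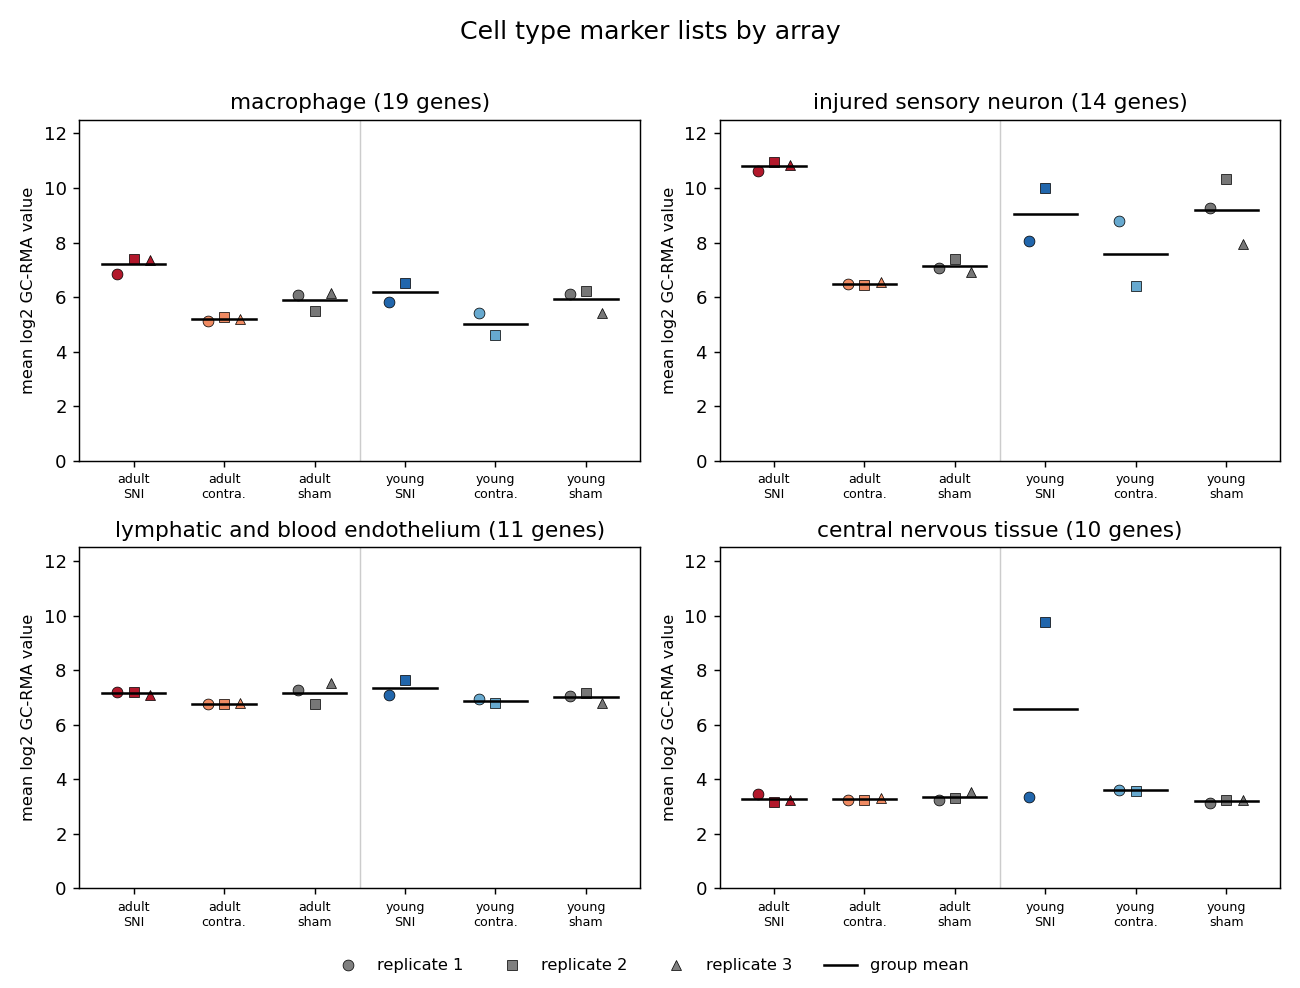
Mean log2 GC-RMA value (vertical axis) of 4 marker lists in each array, by group (horizontal axis), with 1 symbol per array and a line at the group mean. Injured neuron markers separated adult SNI (10.63 to 10.96) from both adult controls (6.46 to 7.40), whereas young sham reached 10.32 and young contralateral 8.80. The mean of the central nervous tissue list was high only in young SNI replicate 2.

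The ligand genes lie in 3 places of the rat genome, and the receptors in another (RefSeq gene order, assembly GRCr8). On chromosome 10, Ccl2 and Ccl7 are neighbours, followed by Ccl11, Ccl12 and Ccl1. Ccl5, Ccl9, Ccl6, Ccl3 and Ccl4 stand in a row elsewhere on the same chromosome. Ccl21 lies on chromosome 5 near Ccl19 and Ccl27, and Ccr1 and Ccr2 lie on chromosome 8 with Ccr3 and Ccr1l1.

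Promoters of 5 of the 9 genes were matched by symbol in RefSeq (GRCr8), namely Ccl6, Ccl7, Ccl21, Ccr1 and Ccr2, and Ccl2, Ccl3, Ccl4 and Ccl5 were not matched. The 250 bases before the start of the 3 matched ligands are printed 5′ to 3′, because these ligands gave signal above the lower quartile on every array. Capitals mark matches on either strand to 3 motifs, none of which overlapped another. They are TATAAA, the usual core of a TATA box, TGANTCA, bound by AP-1 factors such as Jun, and GAGGAA, bound by the myeloid factor PU.1.
Ccl7, chr10:67513845-67514094, + strand: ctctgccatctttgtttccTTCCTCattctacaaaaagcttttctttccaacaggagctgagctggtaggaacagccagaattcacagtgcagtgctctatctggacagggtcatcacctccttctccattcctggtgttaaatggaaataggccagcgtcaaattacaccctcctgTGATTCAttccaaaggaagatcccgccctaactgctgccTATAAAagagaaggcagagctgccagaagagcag
Ccl6, chr10:68883367-68883616, - strand: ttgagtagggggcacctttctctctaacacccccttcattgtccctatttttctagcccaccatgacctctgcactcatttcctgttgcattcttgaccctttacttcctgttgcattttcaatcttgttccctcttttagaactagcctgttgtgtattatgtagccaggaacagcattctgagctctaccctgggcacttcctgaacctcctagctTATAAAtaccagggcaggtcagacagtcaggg
Ccl21, chr5:61777516-61777765, - strand: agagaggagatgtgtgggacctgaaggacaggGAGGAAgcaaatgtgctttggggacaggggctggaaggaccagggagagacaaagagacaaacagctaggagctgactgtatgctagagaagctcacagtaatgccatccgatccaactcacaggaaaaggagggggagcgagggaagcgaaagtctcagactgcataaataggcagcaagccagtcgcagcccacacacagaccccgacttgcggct
The TATA box letters stood 34 to 29 bases before the start of Ccl7 and 32 to 27 bases before that of Ccl6, and 12.9% of 33469 rat promoter windows of this length held them. Ccl7 also held an AP-1 match 73 to 67 bases before its start (6.34% of all windows). A PU.1 match lay 231 to 226 bases before the start of Ccl7 and 218 to 213 bases before that of Ccl21 (23.3% of all windows). These matches describe letters only.

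Ccl2, the main attractant of monocytes, was higher in adult SNI than on the contralateral side. It had values of 11.00, 11.50 and 10.88 in adult SNI, of 9.61, 9.78 and 9.31 in adult contralateral and of 9.69, 9.97 and 9.90 in adult sham. All adult SNI arrays lay above all other adult arrays. The log2 difference from contralateral was 1.56 (2.95-fold, 95% confidence interval 1.03 to 2.09, SE 0.24, adjusted p = 0.0141), and that from sham was 1.27 (2.42-fold, 0.74 to 1.81, SE 0.24, adjusted p = 0.0528), which missed the threshold of 0.05. The call against contralateral was lost without adult SNI replicate 2 (adjusted p = 0.0639), adult contralateral replicate 1 (0.0674) or adult contralateral replicate 3 (0.0693). With the replicate number as a block it passed narrowly (adjusted p = 0.0498). The difference from sham passed when the adult arrays were fitted without the young ones (adjusted p = 0.0334). It also passed with a filter on low values, an intensity trend with a robust prior, or array weights. It did not pass with quantile normalization (adjusted p = 0.0528), a floor of log2 3 (0.0868) or the replicate number as a block (0.113). Nor did it pass when any 1 adult array was left out (adjusted p = 0.065 to 0.209). In bulk tissue, fewer or more cells of a type and less or more RNA per cell cannot be told apart.

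Ccl7, the chromosomal neighbour of Ccl2 and also a ligand of Ccr2, had 5.39, 5.40 and 5.01 in adult SNI. It had 3.95, 3.98 and 4.04 in adult contralateral and 5.25, 4.25 and 4.05 in adult sham. The contralateral arrays were tightly grouped below adult SNI, whereas sham replicate 1 reached the SNI values. The log2 difference was 1.28 from contralateral (95% confidence interval 0.51 to 2.05, adjusted p = 0.159) and 0.75 from sham (-0.02 to 1.52, adjusted p = 0.708), so neither passed. With array weights the difference from contralateral was 1.31 and passed (adjusted p = 0.0294).

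Ccl6, a ligand described in rodents that acts on Ccr1 in mouse, was also higher in adult SNI than on the contralateral side. Its values were 9.16, 9.66 and 10.26 in adult SNI, 7.27, 7.34 and 7.72 in adult contralateral and 8.38, 7.82 and 8.97 in adult sham. The 3 adult groups did not overlap, with sham between the others. The log2 difference was 2.25 from contralateral (4.76-fold, 95% confidence interval 1.39 to 3.12, SE 0.39, adjusted p = 0.0227). From sham it was 1.30 (2.47-fold, 0.44 to 2.17, SE 0.39, adjusted p = 0.303). The call against contralateral was lost on leaving out any 1 of adult SNI replicate 2 (0.0947), adult SNI replicate 3 (0.0973) and the adult contralateral replicates 1 (0.113), 2 (0.0911) and 3 (0.0699).

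Macrophage markers, like Ccl2 and Ccl6, were on average higher in adult SNI than in both adult controls. Of 20 listed markers 19 were measured. Limma called 11 of them higher in adult SNI than contralateral, where 0.921% of all Affy_IDs were called higher. Among them were Lyz2 (lysozyme), Cd68 and Adgre1, by 1.89, 2.56 and 2.09 (adjusted p = 0.0123, 0.0133 and 0.0227). Against sham 2 were higher (0.445% of all Affy_IDs), the antibody receptor genes Fcgr3a and Fcgr2b, by 3.13 and 2.92 (adjusted p = 0.00351 and 0.0244). The mean of the list was 6.84 to 7.41 in adult SNI, 5.13 to 5.28 in adult contralateral and 5.49 to 6.14 in adult sham. Within adult sham Ccl2 did not follow it, as replicate 2 had the lowest mean (5.49) and the highest Ccl2 (9.97). Injured neuron markers were also higher in adult SNI, with 10 of 14 called against contralateral and 5 against sham. Cx3cr1 was at or below the lower quartile of the array in all 16 arrays, Fcgr3a in 13, Cd163 in 11 and Cd68 in 9. Fcgr3a averaged 2.04 in adult contralateral and 2.09 in adult sham, and Cd68 1.82 in adult contralateral, so these differences start from background signal. The part of macrophages or of injured neurons in the chemokine values was not tested. Fcgr3a and Fcgr2b were among the genes the study chose on these arrays.

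Ccl21, which attracts T cells and dendritic cells through Ccr7 and is known from lymphatic endothelium, was higher in adult SNI than contralateral but not than sham. Its values were 4.23, 6.46 and 5.69 in adult SNI and 3.26, 3.43 and 3.45 in adult contralateral, while adult sham had 6.59, 5.64 and 6.31. Adult SNI and sham overlapped, and contralateral lay below both. The log2 difference from contralateral was 2.08 (4.23-fold, 95% confidence interval 1.14 to 3.02, SE 0.43, adjusted p = 0.0480), and that from sham was -0.72 (-1.66 to 0.22, adjusted p = 0.842). The labels do not state a pairing, but the replicate numbers of the adult SNI and contralateral arrays were read as pairs. With the number as a block the contralateral difference of 2.08 did not pass (adjusted p = 0.157). That fit blocked the sham and young arrays by number as well. The call is followed here over the other fits. The call was also lost in 15 of the 16 fits that left out 1 array (adjusted p = 0.0541 to 0.201), and of these held only without adult SNI replicate 1 (2.70, adjusted p = 0.000995). The call was lost as well with each age fitted on its own (adjusted p = 0.163), a floor of log2 3 (0.0812) or young sham replicates 1 and 2 and young contralateral replicate 1 left out together (0.156). RefSeq gives Ccl21b as a synonym of this gene, and whether the probes also read a second copy was not tested.

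The contralateral side itself differed from sham in the level of Ccl21 by -2.80 (95% confidence interval -3.74 to -1.86). This difference had the smallest unadjusted p of all 31042 Affy_IDs (3.88e-05), with an adjusted p of 0.980. Limma called 0 of the 9 genes and 0% of all Affy_IDs in adult contralateral against sham, while 2 of the 9 (Ccl21 and Ccl6) had an unadjusted p under 0.05, as did 2.01% of all. Ccl21, Ccl6 and Ccl7 were lower in every adult contralateral array than in any sham array, narrowly so for Ccl7, a pattern held by 1.99% of all Affy_IDs. Without adult SNI replicate 1, which enters this difference only through the estimated spread, Ccl21 was lower in contralateral (adjusted p = 0.00715). The mean of 11 endothelial markers was 6.75 to 6.78 in adult contralateral and 6.74 to 7.51 in adult sham, with 7.09 to 7.21 in adult SNI. The lymphatic marker Lyve1 averaged 6.96 in adult SNI, 6.00 in adult contralateral and 6.81 in adult sham, whereas Prox1 was at or below the lower quartile in 15 of 16 arrays. Pecam1 averaged 6.99, 5.88 and 6.84 in these groups and Vwf 6.79, 6.25 and 7.02. Flt4, with 4.40, 4.47 and 4.42, and Pdpn, with 11.05, 10.67 and 10.73, did not share this pattern. Of the 11 endothelial markers 2 were higher in adult contralateral than in sham (median log2 difference -0.44, 0.02 over all Affy_IDs), and 0 were called. In young SNI, contralateral and sham Lyve1 averaged 7.115, 7.18 and 7.46, and Ccl21 3.04, 3.025 and 3.17. The part of endothelium in the Ccl21 values was not tested.

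Ccl5, an attractant of T cells and monocytes, was at low signal and varied between the injured pools. It had 2.68, 4.66 and 3.94 in adult SNI, 2.69, 2.78 and 2.77 in adult contralateral and 3.16, 2.71 and 2.91 in adult sham. Adult SNI replicates 2 and 3 were above every other array, and replicate 1 was level with contralateral. The log2 difference was 1.01 from contralateral (95% confidence interval 0.15 to 1.87, adjusted p = 0.379) and 0.83 from sham (-0.03 to 1.69, adjusted p = 0.712). Without adult SNI replicate 1 both passed, at 1.55 (adjusted p = 0.0156) and 1.37 (adjusted p = 0.0423), whereas without replicate 2 they were 0.56 (adjusted p = 0.852) and 0.38 (adjusted p = 1). T and NK cell markers gave 0 calls of 16 measured (18 listed) in any comparison. Of them Cd3d, Cd5, Cd8a, Cd8b, Zap70, Nkg7 and Klrd1 were at or below the lower quartile in all 16 arrays, and the mean of the list was 2.70 to 2.76 in adult SNI, 2.57 to 2.67 in adult contralateral and 2.57 to 2.62 in adult sham. Only 3 of the 16 (Gzmb, Cd4 and Lck) had a positive difference from either adult control. Cd3e and Cd247 differed by -0.10 and -0.12 from contralateral and by -0.21 and -0.14 from sham. Gzmb (granzyme B of cytotoxic cells) and Cd4, which rat macrophages also carry, lay above both adult controls in every adult SNI array without passing, and were chosen after their values were seen. Gzmb had 5.82, 3.88 and 4.76 in adult SNI, 3.23 to 3.33 in adult contralateral and 3.17 to 3.33 in adult sham (difference from contralateral 1.55, adjusted p = 0.395). Cd4 had 2.59, 4.12 and 2.93 in adult SNI, 2.05 to 2.10 in adult contralateral and 2.02 to 2.09 in adult sham (difference from contralateral 1.14, adjusted p = 0.106). Cd4 was highest in the replicate with the highest Ccl5 and Gzmb in the one with the lowest, and the part of T and NK cells in the Ccl5 values was not tested.

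Ccl3 and Ccl4, ligands made by activated white blood cells, and the receptors Ccr1 and Ccr2 lay at or below the lower quartile of the values of each array. Ccl3 ranged from 1.68 to 2.04, Ccl4 from 1.89 to 2.02, Ccr1 from 2.08 to 2.15 and Ccr2 from 2.25 to 2.46 over the 16 arrays. The lower quartile of an array was 2.45 to 2.61. Ccr2, the receptor of Ccl2 and Ccl7, averaged 2.33 ± 0.07 in adult SNI, 2.40 ± 0.05 in adult contralateral and 2.36 ± 0.04 in adult sham (SD, n = 3 each). Changes of these 4 genes were not detectable at this signal.

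**Figure D2:**
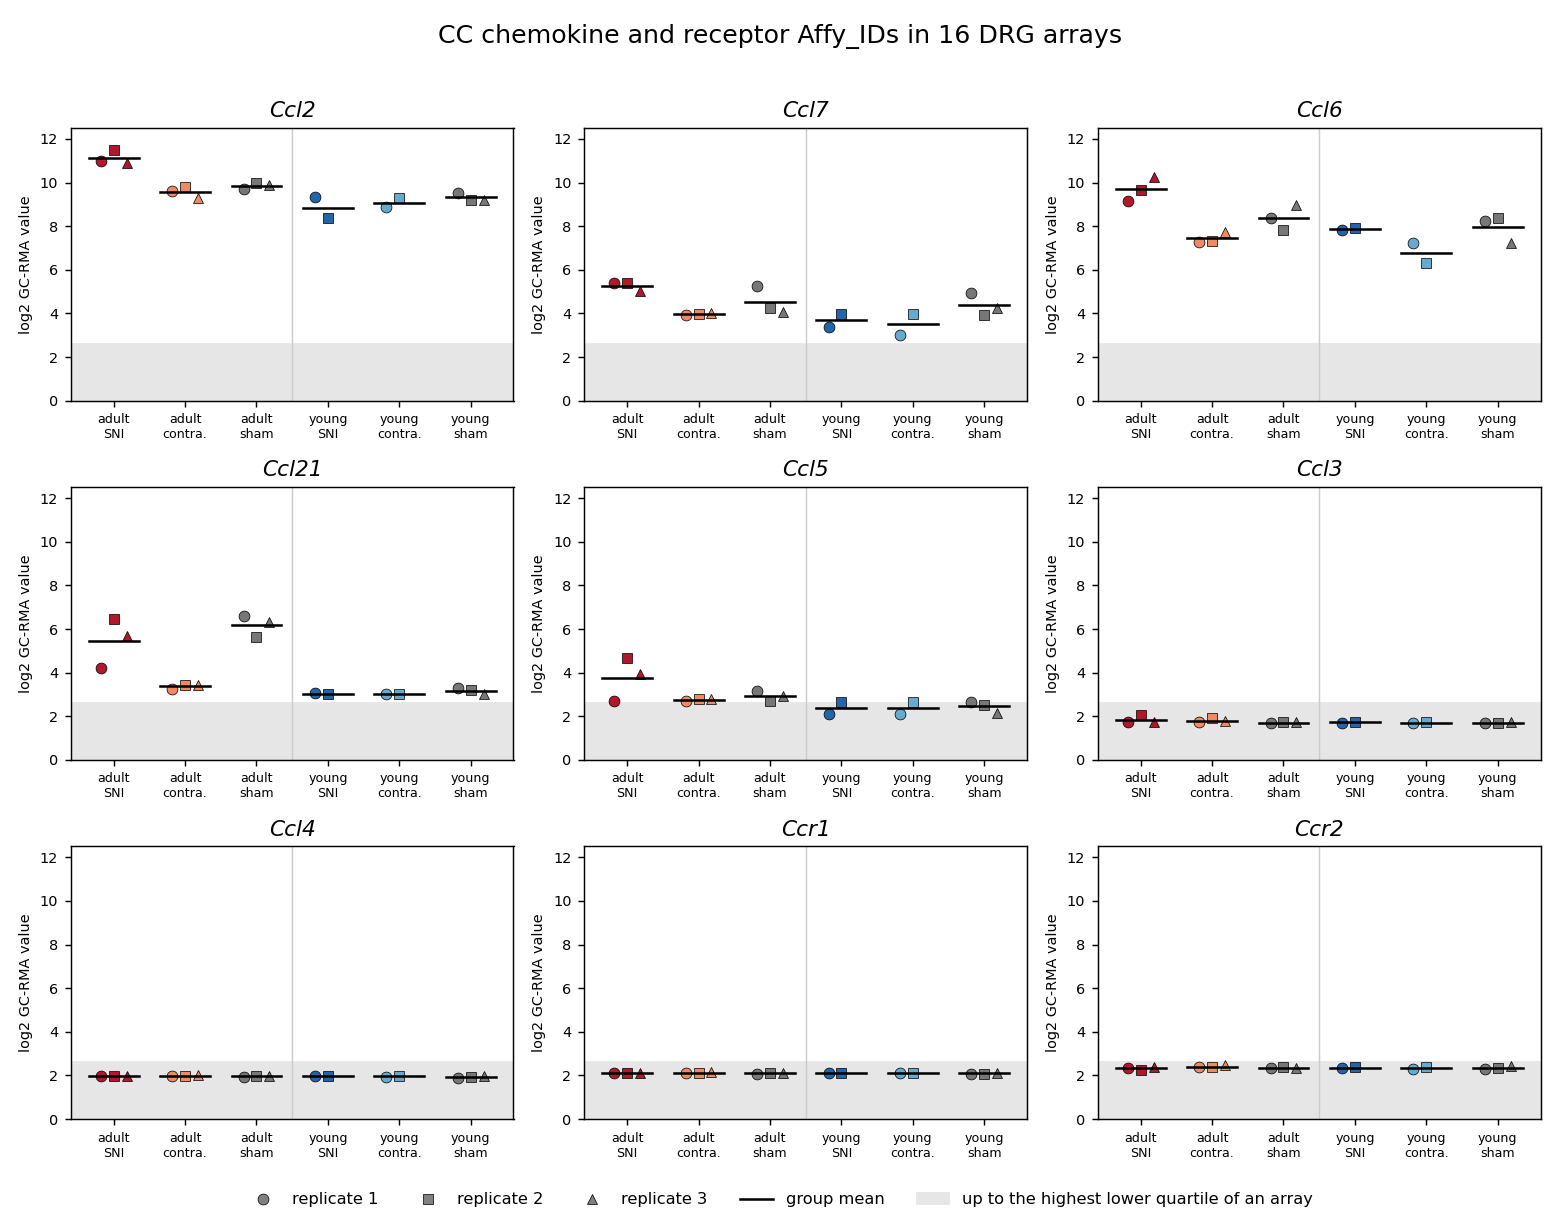
Log2 GC-RMA value (vertical axis) of each of the 9 Affy_IDs in every array, by group (horizontal axis), with 1 symbol per array, a line at the group mean and shading up to the highest lower quartile of an array (2.61). Ccl2 and Ccl6 were highest in adult SNI, Ccl21 was above 4 only in adult SNI and adult sham, and Ccl3, Ccl4, Ccr1 and Ccr2 lay in the shaded range throughout.

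Counted over the 9 genes, 3 were higher in adult SNI than contralateral (Ccl2, Ccl6 and Ccl21), where 0.921% of all Affy_IDs were called higher. All 3 were among the genes the study chose on these same arrays, so the count is not independent evidence of their direction. The groups did not overlap for 4 (those 3 and Ccl7), as for 8.24% of all. Against sham, limma called 0 of the 9, with 0.445% of all called higher, and 2 (Ccl2 and Ccl6) had an unadjusted p under 0.05 (7.33% of all). The same 2 did not overlap with sham (4.17% of all). The median log2 difference of the 9 was 1.01 against contralateral (-0.04 over all Affy_IDs) and 0.12 against sham (-0.02 over all). The comparisons share the adult SNI arrays.

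In the arrays labelled young, limma called 0 of the 9 genes in SNI against sham (0.0161% of all Affy_IDs called higher) and 0 against contralateral (0.00966% called higher). Ccl2 had 9.33 and 8.37 in young SNI, 8.87 and 9.28 in young contralateral and 9.53, 9.22 and 9.22 in young sham. These groups overlapped, and the log2 difference was -0.47 from sham (95% confidence interval -1.07 to 0.12, adjusted p = 0.867) and -0.23 from contralateral (-0.88 to 0.43, adjusted p = 1). Without young SNI replicate 1, so that young SNI replicate 2 stood alone, the log2 difference of Ccl2 from sham was -0.95, and without replicate 2 it was 0.01. Replicate 2 was the array high in central nervous tissue genes.

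Ccl6 had 7.83 and 7.90 in young SNI, 7.25 and 6.31 in young contralateral and 8.22, 8.38 and 7.23 in young sham. Young SNI lay above contralateral and within sham. The log2 difference from contralateral was 1.09 (95% confidence interval 0.03 to 2.15, adjusted p = 0.798), and that from sham was -0.08 (-1.05 to 0.89, adjusted p = 0.989). The macrophage mean was 5.82 and 6.51 in young SNI, 5.43 and 4.62 in young contralateral and 6.09, 6.22 and 5.43 in young sham, and 0 of the 19 markers passed.

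Ccl7 had 3.39 and 3.97 in young SNI, 3.03 and 3.97 in young contralateral and 4.94, 3.94 and 4.25 in young sham, which overlapped. Ccl21 stayed between 3.02 and 3.28 and Ccl5 between 2.08 and 2.66 in all 7 young arrays. An unadjusted p under 0.05 was reached by 0 of the 9 genes against sham (5.91% of all Affy_IDs) and by Ccl6 against contralateral (5.94% of all). Ccl6 and the background-level Ccr1 did not overlap with contralateral (5.86% of all), with only 2 arrays on each side.

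**Figure D3:**
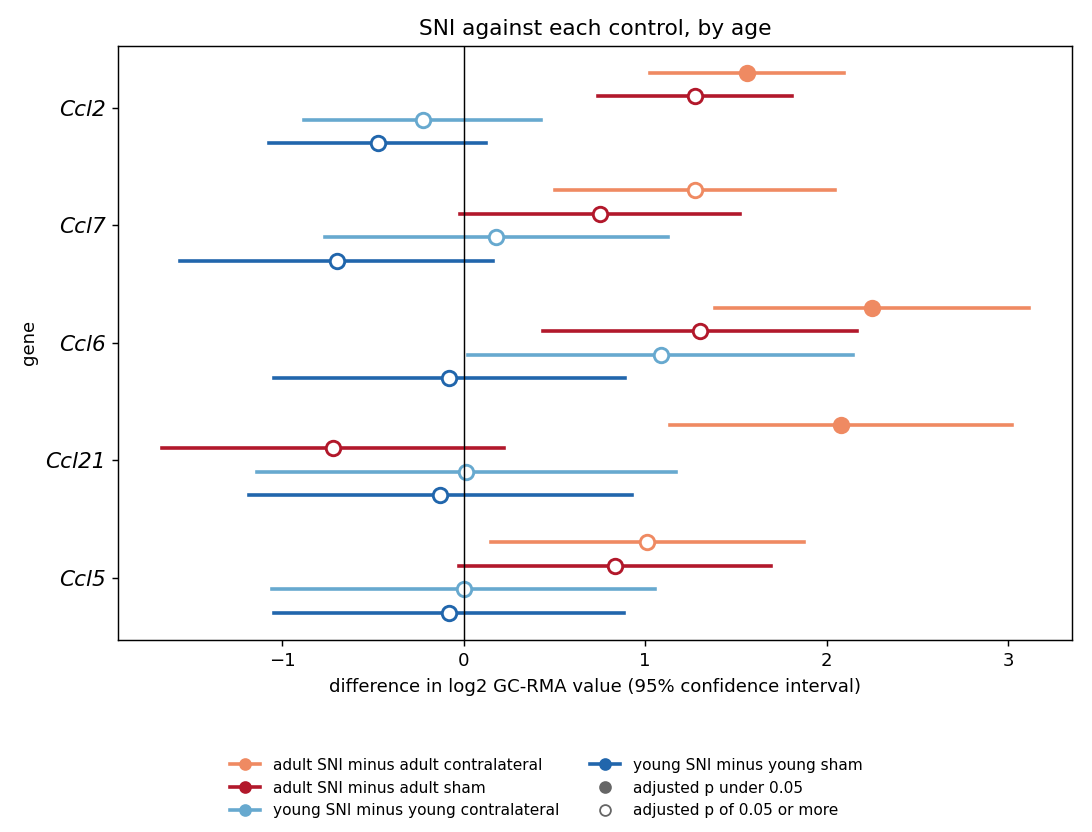
Difference in log2 GC-RMA value between SNI and each control (horizontal axis) for 5 ligands (vertical axis), with its 95% confidence interval. Filled points passed an adjusted p of 0.05: Ccl2, Ccl6 and Ccl21 in adult SNI minus contralateral.

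Adult SNI was then set against young SNI. By qPCR, not analysed here, the study placed Ccl2 (MCP-1) among genes raised after SNI and expressed equally at the 2 ages. The following values are from the arrays. Ccl2 was higher in adults by 2.28 (4.85-fold, 95% confidence interval 1.68 to 2.87, SE 0.27, adjusted p = 0.00283), with 11.00, 11.50 and 10.88 in adult SNI and 9.33 and 8.37 in young SNI. It passed in all 22 alternative fits (adjusted p = 4.51e-05 to 0.0170). Ccl21 was higher in adults by 2.42 (5.35-fold, 1.37 to 3.47, SE 0.48, adjusted p = 0.0295), a call that was lost without adult SNI replicate 2 (0.0577) or 3 (0.0800), adult contralateral replicate 1 (0.0501) or 3 (0.0508), or young SNI replicate 2 (0.149), and with array weights (0.251). Ccl6 differed by 1.83 (0.86 to 2.80, adjusted p = 0.0534), Ccl7 by 1.59 (0.73 to 2.45, adjusted p = 0.0583) and Ccl5 by 1.39 (0.43 to 2.35, adjusted p = 0.118).

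Thus 2 of the 9 genes were higher in adult than in young SNI, where 1.73% of all Affy_IDs were called higher. The adult and young SNI arrays did not overlap for 5 (Ccl2, Ccl5, Ccl6, Ccl7 and Ccl21), as for 13% of all. Beside this, 3 of the 19 macrophage markers were higher in adult SNI (Cd68, Lyz2 and Fcgr3a, by 2.21, 1.48 and 3.01, adjusted p = 0.0302, 0.0381 and 0.00413), and so were the injured neuron markers Sox11 and Adcyap1, by 3.48 and 1.74 (adjusted p = 0.0224 and 0.00260). Xist, transcribed from the inactive X chromosome of females and chosen after its values were seen, was 2.32 to 2.57 in the 9 adult arrays. In the young arrays Xist had 11.84 and 12.05 in SNI, 2.35 and 11.51 in contralateral, and 11.87, 2.36 and 9.77 in sham. Both young SNI arrays were high in Xist and all adult SNI arrays low, so the sex of the pools and their age cannot be told apart in adult against young SNI.

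The control ganglia of the 2 ages differed in Ccl21. It had 6.59, 5.64 and 6.31 in adult sham against 3.28, 3.18 and 3.04 in young sham, a log2 difference of 3.01 (8.07-fold, 95% confidence interval 2.07 to 3.96, SE 0.43, adjusted p = 0.0119). In young sham replicate 2, which was as low in Xist as the adult arrays, Ccl21 had 3.18. The call was lost without adult sham replicate 1 (adjusted p = 0.0523). It was also lost when young sham replicates 1 and 2 and young contralateral replicate 1, whose injured neuron markers were high, were left out together (3.14, adjusted p = 0.160), which leaves 1 young sham array. On the contralateral side Ccl21 differed by 0.36 (-0.70 to 1.41, adjusted p = 0.811).

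Ccl2 differed between ages by 0.53 in sham (95% confidence interval -0.004 to 1.06, adjusted p = 0.412) and by 0.49 on the contralateral side (-0.11 to 1.09, adjusted p = 0.663). Adult and young Ccl2 values did not overlap in sham (9.69 to 9.97 against 9.22 to 9.53) or contralateral (9.31 to 9.78 against 8.87 to 9.28). Nor did those of Ccl5 and Ccl21 in either control, or of Ccl6 on the contralateral side. The share of all Affy_IDs with such a pattern is not given here. Ccl21 was the 1 gene of the 9 called in sham, where 0.229% of all Affy_IDs were called higher. On the contralateral side limma called 0, with 0.0515% of all called higher, and 0 had an unadjusted p under 0.05 (9.52% of all). Young contralateral against young sham also gave 0 calls (0% of all), and Ccl6 and Ccl7 had an unadjusted p under 0.05 (2.25% of all), with log2 differences of -1.16 (-2.13 to -0.20) and -0.88 (-1.74 to -0.02).

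**Figure D4:**
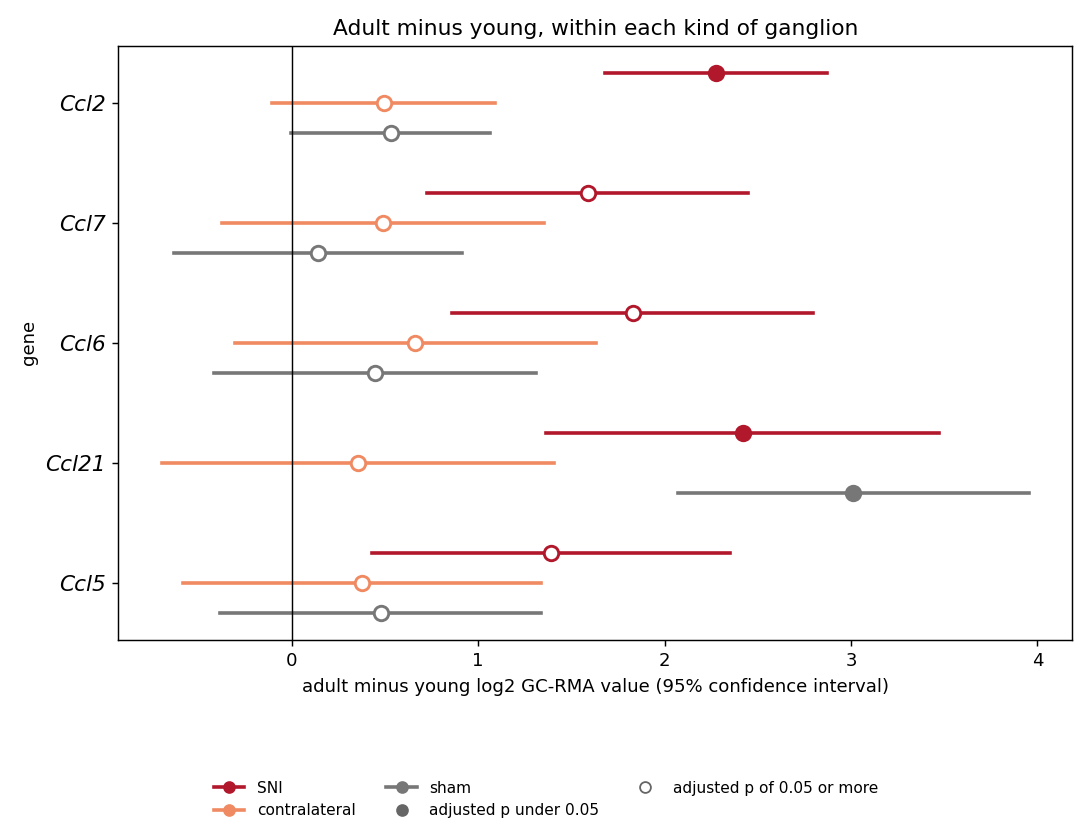
Adult minus young log2 GC-RMA value (horizontal axis) for 5 ligands (vertical axis) in SNI, contralateral and sham ganglia, with 95% confidence intervals. Filled points passed an adjusted p of 0.05: Ccl2 in SNI, and Ccl21 in SNI and sham.

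Whether the response to SNI differed between ages was tested as the adult difference minus the young one. The young difference goes by the labels only. In young SNI, 3 of 14 injured neuron markers were positive against sham (median log2 difference -0.23) and 13 against contralateral (1.46). Limma called 0 of the 9 genes with sham as control (0.0612% of all Affy_IDs called higher) and 0 with the contralateral side (0.00966%). For Ccl2 the difference in response was 1.75 with sham (95% confidence interval 0.95 to 2.55, adjusted p = 0.163) and 1.79 with contralateral (0.94 to 2.63, adjusted p = 0.363). For Ccl21 it was 2.07 with contralateral (0.58 to 3.56, adjusted p = 0.799) and -0.59 with sham (-2.01 to 0.82, adjusted p = 0.903).

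Without young SNI replicate 1, the difference in response of Ccl2 was 2.23 with sham and 2.27 with contralateral, young SNI replicate 2 then standing alone. Replicate 2 was the array high in central nervous tissue genes (mean 9.77) and had the lowest Ccl2 of the 16 arrays (8.37). Young SNI replicate 1 had 9.33, within the young sham values of 9.22 to 9.53. Ccl21 passed with contralateral without adult SNI replicate 1 (2.68, adjusted p = 0.0399). An unadjusted p under 0.05 was reached by 3 genes with sham (Ccl2, Ccl6 and Ccl7, 6.28% of all Affy_IDs) and by 2 with contralateral (Ccl2 and Ccl21, 4.81% of all).

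Few other genes of the family passed. Of 14 further CC or CC-like ligands 10 were measured, and 1 passed in any comparison. This was Cklf, a chemokine-like factor that the study also chose on these arrays, which averaged 5.52 in adult SNI, 4.21 in adult contralateral and 4.74 in adult sham and was higher than contralateral by 1.30 (adjusted p = 0.0355). In that comparison 0.921% of all Affy_IDs were called higher. Ccl9, Ccl20, Ccl22 and Ccl28 were at or below the lower quartile in all 16 arrays.

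Of 12 further receptors 8 were measured and 0 passed in any of the 11 comparisons. Ccr3, Ccr4, Ccr6 and Ccrl2 were at or below the lower quartile in all 16 arrays. Ackr1, an atypical receptor that binds chemokines without signalling and is known from venules and red blood cells, had the clearest signal, 9.18 to 10.97. It averaged 10.73 in adult SNI, 10.73 in adult contralateral and 10.83 in adult sham.

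Of 25 genes that carry the signal of chemokine receptors inside the cell 20 were measured. Of these 1 (Rgs2, which shortens G protein signals) was higher in adult SNI than contralateral, by 1.35 (adjusted p = 0.0242), with 0.921% of all Affy_IDs called higher. The median log2 difference between adult SNI and contralateral was 0.14 for this list, -0.003 for the further ligands and -0.03 for the further receptors, against -0.04 over all Affy_IDs.

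Among 13747 Affy_IDs with 1 gene symbol and a mean of at least 4, Lyz2 had the pattern most like that of Ccl6 over the 16 arrays (Pearson r = 0.969), followed by Ifitm3 (0.952) and Cp, the copper protein ceruloplasmin (0.948). For Ccl2 these were Glrx (glutaredoxin, 0.950), Pdp1 (0.940) and Hopx (0.938). For Ccl21 they were Igfbp5, which binds insulin-like growth factors (0.899), Rnase4 (0.886) and Ccs (0.876). For Ccl7 they were Myd88, an adaptor of Toll-like receptors (0.880), Plin2 (0.865) and Il2rg (0.857), and for Ccl5 Zswim8 (0.926), Fpgs (0.913) and Mavs (0.906). Among the 5 ligands with signal, r lay between 0.614 (Ccl7 and Ccl21) and 0.765 (Ccl2 and Ccl5), with 0.742 for the neighbours Ccl2 and Ccl7. The points share array, pool and normalization, so these values only describe the arrays.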

How the data were processed

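The study measured messenger RNA of L4/L5 DRG on whole-genome rat arrays of Affymetrix. The authors made the deposited log2 values with GC-RMA, which corrects probe background by GC content, normalises between arrays and summarises each probe set, and removed 2 arrays as outliers before deposit. The values were rounded to 2 decimals and carry no counts, so the number of arrays limits the precision. All 31042 Affy_IDs other than 57 controls entered 1 limma fit (limma 3.58.1, R 4.3.3) of 16 arrays with 6 group means, with no filter on low values. Each comparison had its own Benjamini-Hochberg adjustment, and adjusted p under 0.05 was the threshold. A single gene symbol was available for 20826 of them. For a listed gene the Affy_ID with the highest mean was used. The text names the 9 genes, list members that passed (up to 6 per list and comparison) or define a cell type, and for each ligand with signal the 3 genes with the most similar pattern. The genes and lists were chosen with earlier results of these data known. Replicate numbers were checked by correlating deviations from group means over Affy_IDs. Adult SNI and contralateral arrays of the same number gave 0.449, 0.445 and 0.362, and these groups come from the 2 sides of the SNI rats, so the numbers were read as pairs only there. The replicate block itself was set by number on every array of an age, so it also tied sham and young arrays of the same number. Alternatives were quantile normalization, a filter (log2 above 4 in at least 2 arrays), an intensity trend with a robust prior, array weights, each age on its own, the replicate block, a floor of log2 3, leaving out each array, and, added after seeing the data, leaving out 3 young control arrays together. The fit was tested on simulated data. Promoters were read with Python 3.11.15 and pandas 2.3.3, and figures drawn with matplotlib 3.10.9. For the GC-RMA step, no version is given in the sources used here. The study's qPCR and staining were not analysed here.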

Additional observations from a re-analysis of the deposited data

How the results depend on the processing

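The number of the 9 genes called was recomputed under each alternative. In adult SNI against sham the count of 0 became 1 (Ccl2) with the filter on low values, the intensity trend and robust prior, array weights, or each age fitted on its own (adjusted p = 0.0243, 0.0379, 0.0220 and 0.0334). Leaving out 1 array gave 0 to 1 (Ccl5 without adult SNI replicate 1, Ccl2 without either young SNI array). In adult SNI against contralateral the count of 3 became 4 (Ccl7 added) with array weights, and 2 (Ccl21 lost) with each age fitted on its own, the floor or the 3 young control arrays left out. Leaving out 1 array gave 0 to 4. It was 4 (Ccl5 added) without adult SNI replicate 1, 0 without adult SNI replicate 2 or adult contralateral replicate 1 or 3, and 1 (Ccl2) without adult SNI replicate 3 or adult contralateral replicate 2. Without any 1 adult sham or young sham array the count was 2 (Ccl21 lost). In adult against young SNI the count of 2 became 4 (Ccl6 and Ccl7 added) with quantile normalization, the filter, or the trend and robust prior, and 1 (Ccl2) with array weights or with the 3 young control arrays left out. Leaving out 1 array gave 1 to 4.

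Leaving out 1 array gave 0 to 1 in young SNI against sham (Ccl2 without young SNI replicate 1), in adult contralateral against sham (Ccl21 without adult SNI replicate 1), in adult against young sham (0 without adult sham replicate 1) and in both differences in response (Ccl2 without young SNI replicate 1, and with contralateral also Ccl21 without adult SNI replicate 1). Adult against young sham also gave 0 with the 3 young control arrays left out. A group left with 1 array was assumed to vary like the other groups. Without replicate 1, young SNI was left with replicate 2, the array high in central nervous tissue genes, so these Ccl2 calls rest on that array. No signed difference that passed turned its direction in any alternative.

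With the replicate number as a block, adult SNI against contralateral gave 2 calls (Ccl2 and Ccl6, adjusted p = 0.0498 and 0.0250), and the block left the count of the 9 at 0 in the other comparisons within an age and in both differences in response. It was not fitted between ages. The block was set by number on every array of an age, sham and young arrays included, and so is not a test of the adult pairs alone. Young SNI and contralateral arrays of the same number correlated by 0.151 and 0.151, but number 1 had Xist at 11.84 in SNI and 2.35 in contralateral, so these numbers were not read as pairs, although the block tied them. Arrays of SNI or contralateral and sham share only a number, with correlations of -0.508 (young contralateral and sham, number 2) to 0.20 (adult SNI and sham, number 3). The filter removed Ccl3, Ccl4, Ccl5, Ccr1 and Ccr2, so it tests 4 of the 9 genes, and their low signal limits what these arrays can show.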
